A study of Homo sapiens with 18 samples.

Results

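The genes described here are those that build cholesterol and fatty acids and the proteins that switch them on, a set of 34 genes chosen by name from knowledge of the SREBP pathway: 5 regulators, 19 sterol genes and 10 fatty acid genes. Of these, 31 had at least 1 probe set naming a single gene, and all 31 were among the 12537 genes tested out of 19775 named on the array (17 sterol genes, 9 fatty acid genes and 5 regulators). No values are given for FDFT1, which is not analysed here, or for CYP51A1 and FADS1, whose probe sets also name other genes. The other 31 were measured in HCT116, an established human colorectal carcinoma line, as 9 isogenic clones with 2 biological replicate arrays each, from total RNA of untreated cells grown for 6 days. In 7 clones the cells expressed a heterozygous mutant isocitrate dehydrogenase: 2C11 and 2H1 carried IDH1 R132H/+, 3A4 carried IDH1 R132C/+, 8G12 and 17H5 carried IDH2 R140Q/+, and 47C2 and 45G3 carried IDH2 R172K/+. The references were 16F8, a clone targeted to IDH1 R132C/+ that is wild type at the mRNA level because its mutant allele is not expressed, and the untargeted parental line. Each mutant line is 1 clone, and 3A4 is the only R132C clone that expresses the mutant, so a clone's own traits and its mutation cannot be told apart there.

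SREBF1 and SREBF2 encode SREBP-1 and SREBP-2, transcription factors held in the membrane of the endoplasmic reticulum with their escort SCAP. When membrane sterol is plentiful, INSIG1 and INSIG2 retain the complex there. When sterol falls, the complex moves to the Golgi, proteases release the factor, and it enters the nucleus and activates genes whose promoters carry a sterol regulatory element, usually beside boxes for NF-Y and Sp1. SREBP-2 mainly drives cholesterol synthesis and SREBP-1c mainly fatty acid synthesis, while INSIG1 and SREBF2 are themselves targets, so their mRNA is a common readout of the pathway. Arrays measure mRNA, not the cleaved nuclear factor.

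The promoters of 4 members are shown because the results turn on these genes: both SREBP genes, the feedback gene INSIG1, and STARD4, the member with the widest called range. Each runs 5′ to 3′ on the gene's own strand from 250 bases before to 50 bases after the start (RefSeq, GRCh38.p14). Capitals mark the core of the sterol regulatory element, CACNCCAC, and the NF-Y box, CCAAT, on either strand. SREBF2 lies at chr22:41832855-41833154 (+), INSIG1 at chr7:155297628-155297927 (+), STARD4 at chr5:111512486-111512785 (-) and SREBF1 at chr17:17836937-17837236 (-).
SREBF2: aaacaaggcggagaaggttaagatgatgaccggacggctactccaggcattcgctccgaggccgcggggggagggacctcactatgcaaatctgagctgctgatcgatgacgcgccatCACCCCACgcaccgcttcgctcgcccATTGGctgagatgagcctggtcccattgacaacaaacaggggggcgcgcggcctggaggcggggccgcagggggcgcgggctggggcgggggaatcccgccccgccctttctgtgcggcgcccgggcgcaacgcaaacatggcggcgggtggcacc
INSIG1: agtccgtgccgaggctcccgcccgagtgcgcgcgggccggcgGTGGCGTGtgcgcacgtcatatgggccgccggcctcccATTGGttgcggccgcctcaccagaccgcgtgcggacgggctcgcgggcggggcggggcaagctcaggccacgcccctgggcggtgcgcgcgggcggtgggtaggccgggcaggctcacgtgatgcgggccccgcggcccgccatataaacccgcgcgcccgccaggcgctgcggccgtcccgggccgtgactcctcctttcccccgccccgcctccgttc
STARD4: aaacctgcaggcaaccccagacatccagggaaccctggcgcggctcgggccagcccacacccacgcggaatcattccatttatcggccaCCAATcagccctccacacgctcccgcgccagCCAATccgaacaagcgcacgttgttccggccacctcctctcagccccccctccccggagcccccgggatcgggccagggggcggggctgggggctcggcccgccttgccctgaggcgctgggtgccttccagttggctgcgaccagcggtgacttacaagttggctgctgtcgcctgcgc
SREBF1: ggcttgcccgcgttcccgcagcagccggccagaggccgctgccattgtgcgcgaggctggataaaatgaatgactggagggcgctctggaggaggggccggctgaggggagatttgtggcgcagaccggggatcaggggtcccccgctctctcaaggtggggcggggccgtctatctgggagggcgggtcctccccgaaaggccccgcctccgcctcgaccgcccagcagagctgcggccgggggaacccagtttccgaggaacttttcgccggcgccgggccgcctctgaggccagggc
The SREBF2 window held the longer core TCACNCCAC at 133 bases before the start and an NF-Y box on the opposite strand at 106 bases. The INSIG1 window held the core on the opposite strand at 208 bases, an NF-Y box at 170 bases and an E-box, CACGTG, at 55 bases before the start. STARD4 held 2 NF-Y boxes and no sterol regulatory core in this window. The 1 window given for SREBF1 held neither motif, only Sp1 boxes (GGGCGG). Other starts of SREBF1 were not examined, so this says nothing of sterol regulatory elements elsewhere in the gene. Whether SREBP-1a or SREBP-1c starts in this window was not analysed. Promoter windows were given for 30 of the 34 members. Read on both strands and allowing overlap, CACNCCAC was in 7 of the 30 (23.3%), in ACACA, IDI1, INSIG1, MID1IP1, SC5D, SCD and SREBF2, against 7.05% of 27305 genes. The longer TCACNCCAC, which overlaps it, was in 2 members (6.67%), SREBF2 and MID1IP1, against 1.39% of all genes. CCAAT was in 23 members (76.7%, against 39.7%), GGGCGG in 29 (96.7%, against 48.3%) and CACGTG in 4 (13.3%, against 8.77%). Among sterol genes CACNCCAC was in 2 of 16 windows, and among fatty acid genes in 3 of 9. These are matches to letters, not sites of binding.

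The deposited values are linear array signals, in arbitrary units and scaled by the authors so that the mean of each array without its top and bottom 2% was 150.01 to 150.02, with array medians of 12.3 to 15.6. The spiked poly-A controls were 1.42 to 1.71 times the median array in 4 arrays (2C11 replicate 1, 8G12 replicate 2, 16F8 replicate 1 and parental replicate 1). They were 0.587 to 1.05 times in the other 14, so counts are also given without those 4. Such counts rest on a lone array for 2C11, 8G12, 16F8 and parental, set against the spread pooled over the other clones. By whole-array profile, 15 of 18 arrays lay closest to the other array of their own clone. All 6 epithelial markers were present (summed signals of 10400 to 15000 in the 9 clones). Of 7 fibroblast markers only COL1A1 passed the filter (summed signals of 201 to 375), and of 5 measured haematopoietic markers the highest mean was 12.9, for HBB.

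Of the 31 members, 28 differed among the 9 clones beyond the spread of the replicate arrays (limma's moderated F test over all 12537 genes, Benjamini-Hochberg adjusted p under 0.05), a share of 90.3%, where 52.4% of all tested genes did. They were 16 of 17 sterol genes, 7 of 9 fatty acid genes and all 5 regulators. Without the 4 arrays of high poly-A controls, 26 differed. The 3 that did not pass were MSMO1, the sterol C4-methyl oxidase (adjusted p = 0.759), SCD, the desaturase that makes oleate (0.0535), and FADS2, a desaturase of polyunsaturated fatty acids whose signals of 1.8 to 23.6 lay around the array medians (0.311). Ranges between the highest and lowest clone had a median of 0.82 log2 units for sterol genes, 0.79 for fatty acid genes and 1.05 for regulators, against 0.63 for all tested genes. Differences are on the scale log2(signal + 2.2), which understates changes of low signals.

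**Figure D1:**
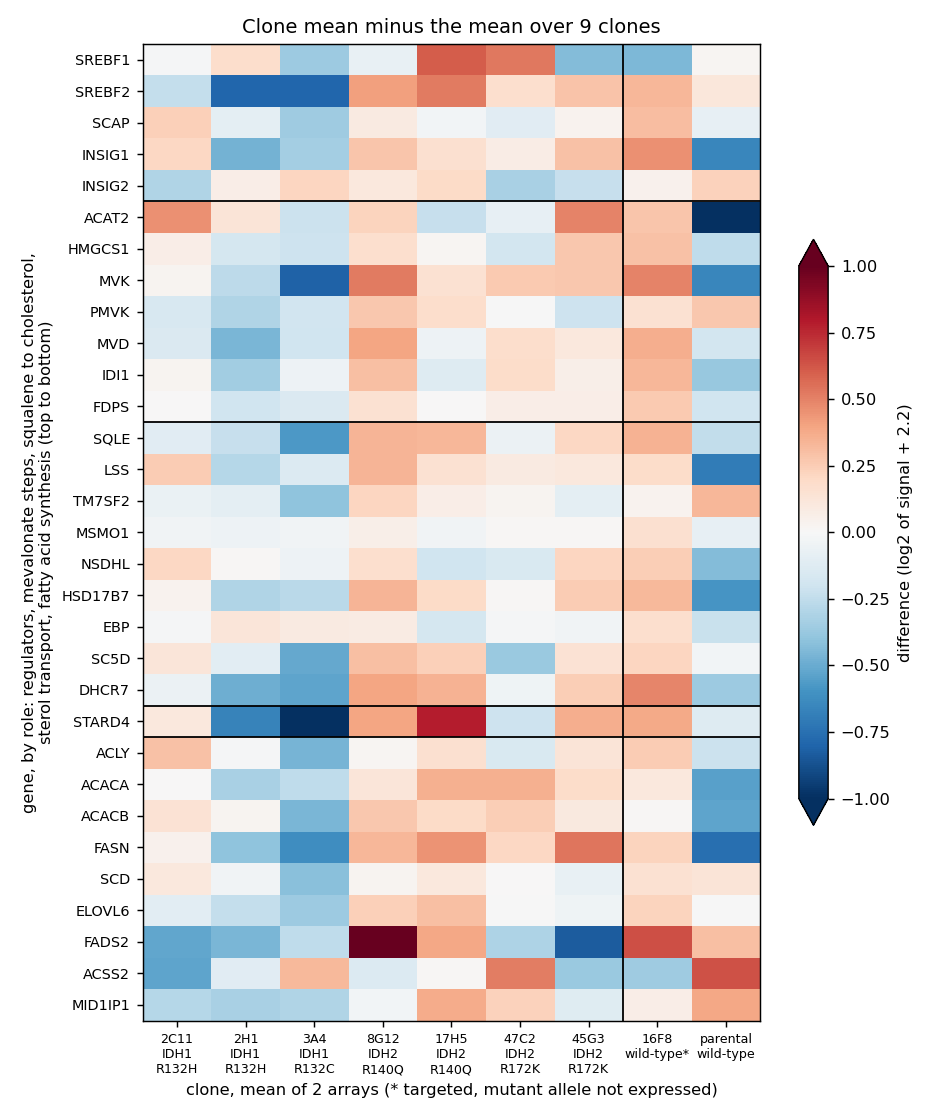
Clone means of the 31 measured genes (rows, by role) minus each gene's mean over the 9 clones, in log2(signal + 2.2), with mutant clones left of the line and 16F8 and parental right of it. Most sterol rows are blue in 2H1, 3A4 and parental and red in 8G12 and 16F8, while ACSS2, TM7SF2, PMVK and MID1IP1 are red in parental.

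Among the regulators, SREBF2 was lowest in 2 of the 3 IDH1-mutant clones. Its signals were 249 and 282 in 2C11, 167 and 193 in 2H1, 188 and 171 in 3A4, 450 and 385 in 8G12, 462 and 437 in 17H5, 344 and 361 in 47C2, and 436 and 336 in 45G3. The references gave 353 and 443 in 16F8 and 355 and 323 in parental. All 6 arrays of the IDH1-mutant clones lay below all 12 other arrays. SREBF2 fell in 2H1 and in 3A4 by 1.13 each against 16F8 (SE 0.14; adjusted p = 3.09e-05 and 1.99e-05) and by 0.91 each against parental (1.3e-04 and 1.1e-04). In 2C11 the difference from 16F8 was -0.57 (adjusted p = 0.0454), and without 16F8 replicate 2 it was -0.41 and did not pass. A second SREBF2 probe set, with a mean signal of 83, gave -0.36 in 2H1 and -0.26 in 3A4 against 16F8, and neither passed (adjusted p = 0.329 and 0.447).

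INSIG1, the feedback inhibitor that holds SCAP back, was lowest in parental. Its signals were 1081 and 1065 in 2C11, 619 and 723 in 2H1, 753 and 712 in 3A4, 1210 and 1054 in 8G12, 1022 and 1058 in 17H5, 979 and 975 in 47C2, and 1255 and 1033 in 45G3. The references were far apart, with 1214 and 1348 in 16F8 and 568 and 612 in parental. The 2 parental arrays lay below the other 16, the 4 arrays of 2H1 and 3A4 came next, and the remaining 12 were all above those. Against parental INSIG1 rose by 1.11 in 16F8 (SE 0.11, adjusted p = 2.3e-06), and by 0.73 to 0.95 in 2C11 and the 4 IDH2-mutant clones. Against 16F8 it fell by 0.93 in 2H1 (adjusted p = 1.34e-05) and by 0.8 in 3A4 (4.41e-05).

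SREBF1 had another order in its brighter probe set, but its second probe set, nearly as bright, did not share that order. In the brighter one the signals were 83.3 and 105 in 2C11, 123 and 92.6 in 2H1, 69.9 and 76.1 in 3A4, 98.6 and 81.6 in 8G12, 142 and 148 in 17H5, 136 and 139 in 47C2, and 68 and 70.5 in 45G3, against 63.5 and 74.5 in 16F8 and 83.6 and 110 in parental. The 4 arrays of 17H5 and 47C2 lay above all others, and 45G3, which has the same mutation as 47C2, lay with 16F8 and 3A4 at the low end. SREBF1 rose by 1.05 in 17H5 (SE 0.18, adjusted p = 0.00148) and by 0.98 in 47C2 (0.00255) against 16F8. Against parental it rose by 0.58 in 17H5 (0.0435) and 0.51 in 47C2 (0.0441), and without parental replicate 1 these were 0.39 and 0.31 and did not pass. The second SREBF1 probe set, with a mean signal of 95.2, gave 0.47 in 17H5 and 0.19 in 47C2 against 16F8, neither of them past the threshold (adjusted p = 0.086 and 0.57). In that probe set 3A4 (63.4) and 2H1 (85) were lowest and 17H5 (123) highest, and 47C2 (101) and 45G3 (94.4) lay close together. The array does not separate SREBP-1a from SREBP-1c.

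The other regulators varied less. SCAP, the escort and sterol sensor, had means of 118 in 3A4 and 190 in 16F8, the lowest and highest, and fell by 0.67 in 3A4 against 16F8 (SE 0.14, adjusted p = 0.00241). INSIG2, which retains SCAP like INSIG1 but is not a strong SREBP target, had means of 381 in 47C2 and 563 in parental, its extremes. It fell by 0.56 in 47C2 (adjusted p = 0.00167), 0.54 in 2C11 (0.00228) and 0.46 in 45G3 (0.0061) against parental. The call in 2C11 was lost without 2C11 replicate 2 (adjusted p = 0.053), and that in 45G3 without parental replicate 1 (0.0829).

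The mevalonate steps lead from acetyl-CoA to farnesyl diphosphate. ACAT2, the cytosolic thiolase that joins 2 acetyl-CoA, had signals of 985 and 1092 in 2C11, 837 and 813 in 2H1, 679 and 625 in 3A4, 876 and 887 in 8G12, 655 and 632 in 17H5, 705 and 718 in 47C2, and 965 and 1177 in 45G3. It had 946 and 887 in 16F8 and 426 and 307 in parental. Both parental arrays lay below all 16 others. ACAT2 rose in all 8 targeted clones against parental, by 0.83 in 17H5 (SE 0.13, adjusted p = 5.45e-04) to 1.55 in 45G3 (2.41e-07), and all 8 calls held without any 1 array. Against 16F8 it differed by -0.51 in 17H5 (adjusted p = 0.0206) and -0.49 in 3A4 (0.00919), and these 2 calls did not hold without 16F8 replicate 1 (-0.46 and -0.44).

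MVK, mevalonate kinase, had signals of 57.1 and 60.6 in 2C11, 50.5 and 45.1 in 2H1, 34.4 and 29.9 in 3A4, 85.6 and 81.9 in 8G12, 68.9 and 60.1 in 17H5, 62.7 and 77 in 47C2, and 72.6 and 67.3 in 45G3. It had 82.8 and 81.8 in 16F8 and 39.8 and 32.5 in parental. 3A4 and parental overlapped at the bottom, 2C11 and 2H1 lay above them, and 8G12 and 16F8 overlapped at the top. MVK rose by 1.15 in 16F8 (SE 0.17, adjusted p = 1.39e-04), 1.17 in 8G12 (1.44e-04), 0.92 in 45G3 (7.07e-04) and 0.91 in 47C2 (7.8e-04) against parental. It fell by 1.3 in 3A4 against 16F8 (adjusted p = 2.75e-05).

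HMGCS1, which makes HMG-CoA, was highest in 16F8 (1350) and lowest in parental (920), a range of 0.54. Its second, dimmer probe set (mean signal 147) had a range of 1.52, with 45G3 highest (221) and parental lowest (75.8). Fitted by itself it passed in all 8 clones against parental, by 0.69 in 3A4 (adjusted p = 0.00578) to 1.52 in 45G3 (8.98e-06), while the brighter one passed in 8G12, 45G3 and 16F8. FDPS, farnesyl diphosphate synthase, was lowest in 2H1 and parental (1170 in each) and highest in 16F8 (1610). IDI1, the isomerase of the isoprenoid units, was highest in 16F8 (1270) and lowest in parental (774), and fell by 0.68 in 2H1 against 16F8. Its probe set, like that of HSD17B7, is of a class that can bind related transcripts. PMVK, phosphomevalonate kinase, went the other way against parental: it fell by 0.57 in 2H1 (adjusted p = 9.16e-04), with means of 370 in 2H1 and 551 in parental. MVD, the decarboxylase, was dim, with clone means of 29.4 to 55.

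The steps from squalene to cholesterol were led by SQLE, DHCR7, LSS and HSD17B7, whose ranges were the widest of that group. SQLE, squalene epoxidase, had 614 and 567 in 2C11, 542 and 545 in 2H1, 426 and 427 in 3A4, 819 and 800 in 8G12, 790 and 813 in 17H5, 593 and 630 in 47C2, and 704 and 767 in 45G3, against 772 and 857 in 16F8 and 542 and 530 in parental. The 2 arrays of 3A4 lay below all others. SQLE fell by 0.93 in 3A4 (SE 0.09, adjusted p = 1.16e-06) and 0.58 in 2H1 (2.92e-04) against 16F8, and it rose by 0.6 in 16F8 against parental (1.8e-04). DHCR7, which reduces 7-dehydrocholesterol in the last step, had 84.1 and 83.8 in 3A4 and 163 and 182 in 16F8, and fell by 1.02 in 3A4 (adjusted p = 1.07e-04) and 0.98 in 2H1 (2.5e-04) against 16F8.

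HSD17B7, the 3-ketosteroid reductase of the pathway, had means of 336 in 16F8 and 176 in parental and rose by 0.91 in 16F8 (adjusted p = 3.14e-04). LSS, which closes the sterol ring, rose in all 8 clones against parental, by 0.41 in 2H1 (adjusted p = 0.0156, and 0.0897 without 2H1 replicate 2) to 1.04 in 8G12 (1.81e-05), with means of 548 in 8G12 and 266 in parental. That direction depended on the probe set: with the probe set of highest variance, with a mean signal of 37, the estimates were negative in 2H1 (-0.68), 3A4 (-0.3), 2C11 (-0.05) and 17H5 (-0.04). TM7SF2, the sterol C14-reductase, was highest in parental, with means of 98 in 3A4 and 165 in parental (-0.74, adjusted p = 0.00235). NSDHL, the C4-demethylating dehydrogenase, and EBP, the sterol isomerase, were each lowest in parental and highest in 16F8, with ranges of 0.68 and 0.4. SC5D, the desaturase before DHCR7, was lowest in 3A4 (-0.73 against 16F8, adjusted p = 0.00397, and 0.0829 without 16F8 replicate 1).

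STARD4, a carrier that moves cholesterol between membranes and a target of SREBP-2, had the widest range of the members past the F test. Its signals were 460 and 394 in 2C11, 261 and 236 in 2H1, 168 and 222 in 3A4, 475 and 567 in 8G12, 661 and 703 in 17H5, 333 and 350 in 47C2, and 574 and 450 in 45G3. The references gave 545 and 482 in 16F8 and 376 and 345 in parental. The 4 arrays of 2H1 and 3A4 lay below all others and the 2 of 17H5 above all others, while 47C2 overlapped parental. STARD4 fell by 1.4 in 3A4 (SE 0.15, adjusted p = 2.28e-06) and 1.04 in 2H1 (9.06e-05) against 16F8. Against parental it rose by 0.91 in 17H5 (6.56e-04) and by 0.51 in 16F8 (0.0199), and without parental replicate 2 the 16F8 value was 0.44 and did not pass.

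Among the fatty acid genes FASN, the synthase that makes palmitate, was low in 2H1, 3A4 and parental. Its signals were 238 and 338 in 2C11, 198 and 217 in 2H1, 175 and 180 in 3A4, 347 and 348 in 8G12, 336 and 423 in 17H5, 341 and 296 in 47C2, and 387 and 414 in 45G3. It had 265 and 389 in 16F8 and 152 and 174 in parental. Both parental arrays lay below the 16 others, and those of 3A4 and 2H1 lay below the arrays of the remaining clones. Against parental FASN rose by 1.29 in 45G3 (SE 0.18, adjusted p = 4.72e-05), 1.2 in 17H5 (3.52e-04), 1.08 in 8G12 (4.04e-04), 0.97 in 16F8 (8.41e-04) and 0.96 in 47C2 (6.98e-04). It fell by 0.84 in 3A4 against 16F8 (adjusted p = 0.00192). The fall of 0.62 in 2H1 against 16F8 (0.0229) did not pass without 16F8 replicate 2, where the difference was -0.35.

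ACSS2, which makes acetyl-CoA from acetate in the cytosol and nucleus, was high in parental and 3A4, where FASN was low, but also in 47C2, where it was not. Its signals were 86.3 and 105 in 2C11, 127 and 129 in 2H1, 196 and 154 in 3A4, 124 and 127 in 8G12, 142 and 138 in 17H5, 201 and 197 in 47C2, and 120 and 94.3 in 45G3. It had 108 in both arrays of 16F8 and 219 and 214 in parental. Parental was above all 16 other arrays, with 47C2 next. ACSS2 fell by 1.16 in 2C11 (SE 0.15, adjusted p = 2.15e-05), 1.01 in 45G3 (9.39e-05) and 0.99 in 16F8 (1.49e-04) against parental, and it rose by 0.87 in 47C2 (0.0013) and 0.68 in 3A4 (0.0026) against 16F8.

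ACACA, the acetyl-CoA carboxylase of lipogenesis, rose by 0.9 in 17H5 (SE 0.16, adjusted p = 0.00169) and 0.89 in 47C2 (5.61e-04) against parental, with means of 998 in 17H5 and 538 in parental. ACACB, the mitochondrial carboxylase isoform, had a mean of 311 in 8G12 and 181 in parental. ACLY, which makes acetyl-CoA from citrate, was lowest in 3A4 (718) and highest in 2C11 (1220), and it fell by 0.72 in 3A4 against 16F8 (adjusted p = 4.31e-04). ELOVL6, the elongase of palmitate, was also lowest in 3A4 (-0.59 against 16F8, adjusted p = 7.08e-04). MID1IP1, which activates acetyl-CoA carboxylase, was highest in parental and fell by 0.71 in 2H1 (0.00217) and 0.68 in 3A4 (0.00242).

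**Figure D2:**
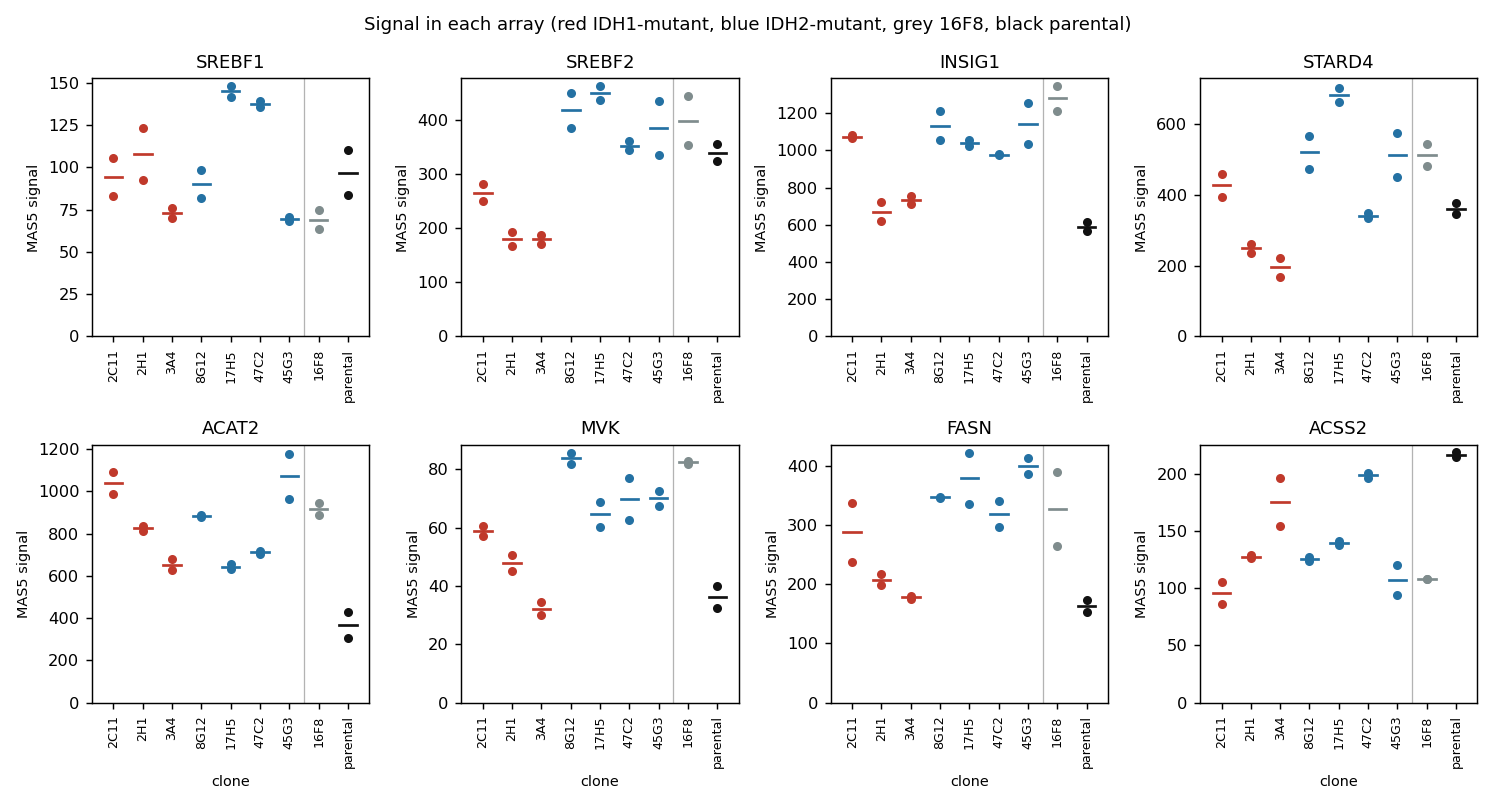
Signal of each array (points, arbitrary units, linear axis from 0) in the 9 clones for 8 genes given array by array: SREBF1, SREBF2, INSIG1, STARD4, ACAT2, MVK, FASN and ACSS2. Some replicate arrays of a clone lie close together and others apart, such as FASN in 16F8 (265 and 389) and ACAT2 in parental (426 and 307). SREBF2 and STARD4 are low in 2H1 and 3A4, and parental is lowest for INSIG1, ACAT2 and FASN and highest for ACSS2.

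Against parental, the members called were mostly higher in 6 of the 8 clones, and 16F8, which expresses no mutant enzyme, was among them. In 16F8, 17 members rose (54.8%, against 12.4% of all genes) and 1 fell (9.57% of all genes). In 8G12, 16 rose (11.4% of all genes) and 1 fell (7.05%). In 45G3, 16 rose (15.1%) and 4 fell (14.7%). The counts in the other IDH2-mutant clones were 12 higher (6.89%) and 1 lower (4.97%) in 17H5, and 11 higher (14.2%) and 1 lower (13.8%) in 47C2. In 2C11, 11 rose (13.4%) and 4 fell (12.5%). The 2 clones that stood apart were 2H1, with 5 higher (14.7%) and 5 lower (16.3%), and 3A4, with 5 higher (17.6%) and 9 lower (19.6%). In 2H1 both shares of members were 16.1%, near those of all genes, and in 3A4 they were 16.1% and 29%. These comparisons share the parental arrays. Leaving out any 1 array of the comparison, which sets a lone array against the spread pooled over the other clones, 11 of the 17 higher calls of 16F8 held, as did 10 of 16 in 8G12, 10 of 16 in 45G3, 8 of 12 in 17H5, 6 of 11 in 47C2 and 4 of 11 in 2C11. Without parental replicate 2 the members called were 8 instead of 14 in 3A4 and 13 instead of 20 in 45G3, without 2C11 replicate 2 they were 8 instead of 15 in 2C11, and without 2H1 replicate 1 they were 6 instead of 10 in 2H1. Without the 4 arrays of high poly-A controls, 16 members instead of 18 were called in 16F8 against parental. That fit kept 1 array each of 16F8 and parental, so it is not a replicated comparison. Parental had the lowest of the 9 clone means for 12 members (38.7%, against 20.5% of all genes): 8 sterol genes, 3 fatty acid genes and 1 regulator.

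Against 16F8 the members called were mostly lower. In 3A4, 18 members were lower (58.1%, against 16% of all genes) and 1, ACSS2, was higher (10.3%). In 2H1, 15 were lower (48.4%, against 10%) and 1, SREBF1, was higher (6.44%). In 8G12 no member passed in either direction (0.526% and 0.104% of all genes were higher and lower), and likewise no member in 45G3 (0.949% and 1.22%). In 2C11 no member was higher (0.981%), and SREBF2 and SQLE were lower (1.28%). At an unadjusted p under 0.05 in the same limma fit, the members past the threshold were 0 in 8G12 (6.69% of all genes), 3 in 45G3, all lower (14%), and 13 in 2C11, of which 12 were lower and 1 higher (13.1%). In 17H5, SREBF1 was higher (4.42%), and ACAT2, EBP, IDI1 and NSDHL were lower (4.13%). In 47C2, SREBF1 and ACSS2 were higher (2.28%), and 6 members were lower (4.13%). Of the lower calls 11 of 18 in 3A4 and 7 of 15 in 2H1 held without any 1 array, and no lower call in 2C11, 17H5 or 47C2 did. Of the higher calls, SREBF1 in 2H1 did not hold (adjusted p = 0.263 without 2H1 replicate 1), and its second probe set gave -0.07 there, while those of ACSS2 in 3A4 and of SREBF1 and ACSS2 in 47C2 and SREBF1 in 17H5 held. The 7 that held in 2H1 were SREBF2, INSIG1, IDI1, FDPS, SQLE, DHCR7 and STARD4. The count in 2H1 was 9 instead of 16 without 2H1 replicate 2. Without the 4 arrays of high poly-A controls, 18 members were called in 3A4, 16 in 2H1, 4 in 47C2, 2 in 17H5 and 0 in 2C11.

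Clones of the same genotype also differed from each other. Between the R132H clones, INSIG1 (-0.68, adjusted p = 0.00104), STARD4 (-0.77), SREBF2 (-0.56) and LSS (-0.54) were lower in 2H1 than in 2C11, 4 members where 4.6% of all genes differed, and only the INSIG1 call held without any 1 array. Between the R172K clones 5 members differed (2.94% of all genes): SREBF1 and ACSS2 were higher in 47C2 than in 45G3, by 0.97 (adjusted p = 0.00582) and 0.88 (0.00268), and ACAT2, STARD4 and HMGCS1 were lower. Of these the ACSS2 call held without any 1 array. The second SREBF1 probe set did not share the SREBF1 difference, with means of 101 in 47C2 and 94.4 in 45G3. Between the R140Q clones, SREBF1 alone was higher in 17H5 than in 8G12 (0.68, adjusted p = 0.0482, 3.37% of all genes), and that call was lost without any 1 of the 4 arrays.

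With the clone as the replicate, no member passed the adjusted threshold in any genotype comparison. Almost no gene did: of all 12537 genes, 1 passed between IDH2-mutant and IDH1-mutant clones and 0 in each other comparison. For the 7 mutant against the 2 wild-type clones, no member reached even an unadjusted p under 0.05 (6.89% of all genes did). The smallest adjusted p of a member was 0.682, as was the smallest of all genes. For the 3 IDH1-mutant against the wild-type clones, 5 members were under 0.05 unadjusted (16.1%, against 15.3% of all genes), all lower: SREBF2, PMVK, TM7SF2, ELOVL6 and MID1IP1. For the 4 IDH2-mutant against the wild-type clones, ACACA, ACACB and FASN were, all higher (9.68%, against 5.05%). Between the 4 IDH2-mutant and the 3 IDH1-mutant clones 11 members were, all of them higher in the IDH2-mutant clones (35.5%, against 13.2% of all genes), with a smallest adjusted p of 0.15. SREBF2 was the closest: its clone means averaged 401 ± 41.6 in the IDH2-mutant clones and 208 ± 49.6 in the IDH1-mutant clones (SD over clones), a difference of 0.95 (SE 0.16, unadjusted p = 9.73e-05). FASN averaged 361 ± 35.8 in the IDH2-mutant and 224 ± 56.8 in the IDH1-mutant clones (0.71, unadjusted p = 0.00957), and STARD4 averaged 514 ± 139 in the IDH2-mutant and 290 ± 121 in the IDH1-mutant clones (0.86, unadjusted p = 0.0114). All 4 IDH2-mutant means lay above all 3 IDH1-mutant means for 10 members (32.3%, against 6.79% of all genes), SREBF2, MVK, MVD, SQLE, MSMO1, DHCR7, ACACA, FASN, ELOVL6 and MID1IP1, and below them for 0 (5.97%). Against the wild-type clones the IDH2-mutant mean of SREBF2 differed by 0.12 and the IDH1-mutant mean by -0.83, and neither passed after adjustment (0.927 and 0.167).

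Sterol and fatty acid genes were set side by side by the median difference of each list. The fatty acid list counts FADS2, whose signals of 1.8 to 23.6 lay around the array medians. Against parental FADS2 differed by -0.82 in 2C11, -1.13 in 45G3 and 0.75 in 8G12 (SE 0.74 each). It also counts SCD from its brightest probe set, whose value of -0.02 was the fatty acid median in 2C11 against parental. Medians without FADS2 or with another SCD probe set were not computed. In 16F8 against parental the medians were 0.55 for the 17 sterol genes and 0.35 for the 9 fatty acid genes, against 0.02 for all genes. In 8G12 they were 0.58 and 0.24, in 45G3 0.45 and -0.04, in 47C2 0.26 and 0, in 2C11 0.24 and -0.02, and in 17H5 0.27 and 0.3. In 2H1 they were 0.03 and -0.16, and in 3A4 0.04 and -0.31. These comparisons share the 2 parental arrays, and those against 16F8 share its 2 arrays. Against 16F8 both lists were low in 3A4, with medians of -0.49 for sterol and -0.57 for fatty acid genes, and in 2H1, with -0.47 and -0.39. In 47C2 they were -0.24 and -0.01, in 17H5 -0.19 and 0.18, in 2C11 -0.26 and -0.17, in 45G3 -0.15 and -0.13, and in 8G12 -0.01 and 0.02. All 17 sterol estimates were below 0 against 16F8 in 2H1, 3A4 and 47C2. Those above 0 were 1 in 45G3, 2 in 2C11, 4 in 17H5 and 8 in 8G12. For all genes the median against 16F8 ran from -0.04 in 3A4 to 0.02 in 8G12, and against parental from -0.02 in 3A4 to 0.04 in 8G12. The share of all genes above 0 was not computed. The reference 16F8 itself had the highest clone mean for 8 of the 17 sterol genes (47.1%, against 8.14% of all genes). Of the 9 fatty acid estimates against 16F8, 6 were above 0 in 17H5 and 6 in 8G12. There were 4 in 47C2, 3 in 45G3, 2 in 2C11, 2 in 2H1 and 1 in 3A4. The fatty acid list is mixed: in 16F8 against parental ACACA, ACACB, FASN and ACLY rose and ACSS2 fell. The FASN and ACSS2 calls held without any 1 array, while the others did not: the largest adjusted p was 0.133 for ACACA and 0.0983 for ACLY without 16F8 replicate 2, and 0.416 for ACACB without parental replicate 2.

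**Figure D3:**
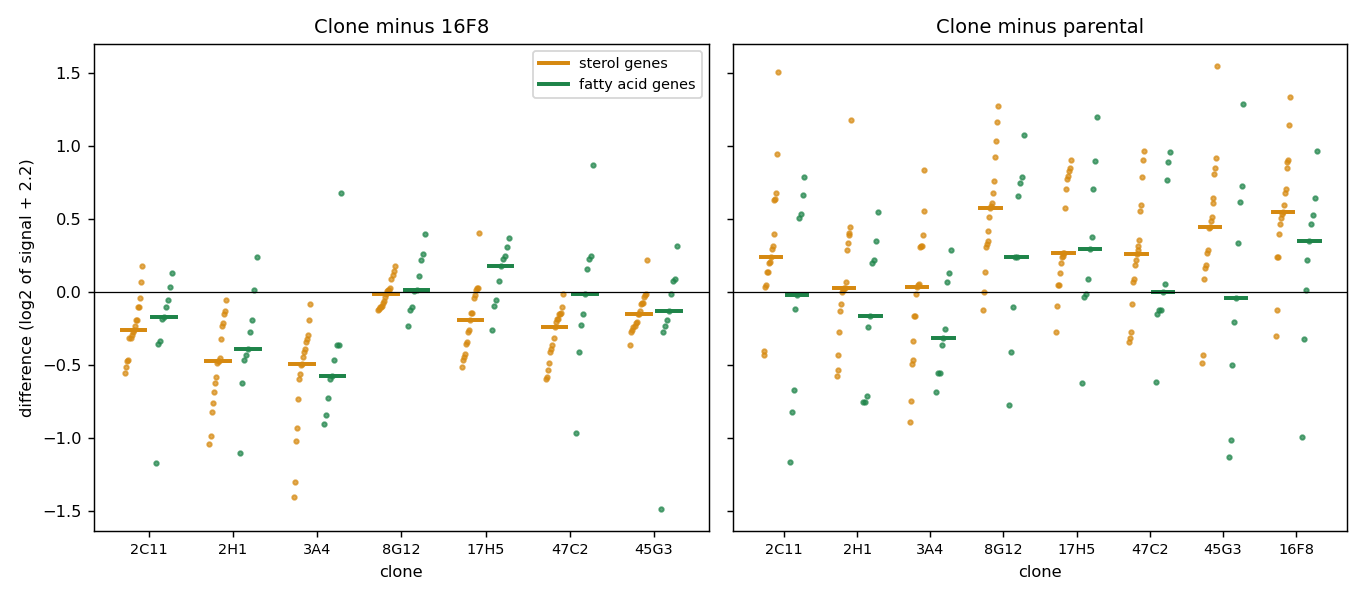
Difference of each sterol and fatty acid gene (points) and the median of each list (bars), in log2(signal + 2.2), for each clone minus 16F8 (left panel) and minus parental (right panel). Minus 16F8, both lists are low in 2H1 and 3A4, and minus parental, sterol medians are highest in 8G12 (0.58) and 16F8 (0.55).

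Across the 9 clone means, which share the array platform and scaling, sterol genes correlated with each other at a median r of 0.62, fatty acid genes with each other at 0.39, and sterol with fatty acid genes at 0.46. INSIG1 had a median r of 0.78 with sterol genes, 0.6 with fatty acid genes and 0.07 with all other tested genes, and SREBF2 had 0.67, 0.63 and 0.07. SREBF1, read from its brighter probe set, had -0.13 with sterol and 0.3 with fatty acid genes. Its second probe set correlated with the brighter one at r = 0.5 over the 18 arrays. The correlations of that second set with the 2 lists were not computed. INSIG1 was most like HSD17B7 (r = 0.97, rho = 0.93, and r = 0.93 without the 2 clones farthest from the median). SREBF2 was most like ELOVL6 (r = 0.92, rho = 0.93, and 0.84 without the 2 farthest) and STARD4 (0.91, 0.93 and 0.66). Other SREBF2 correlations leaned more on the 2 farthest clones. Without them r went from 0.57 to 0.3 for HMGCS1, from 0.67 to 0.2 for TM7SF2 and from 0.64 to -0.14 for SCD. For SQLE it went from 0.86 to 0.79. The list medians were not computed without these clones. ACSS2 ran against INSIG1 (r = -0.67, rho = -0.77). These values describe 9 clones and carry no test.

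Probe sets of 1 gene did not always give the same picture. Of the 31 members, 17 had a further probe set past the filter, 31 such sets in all, and their correlation with the set used ran from -0.29 to 0.97 over the 18 arrays, with a median of 0.72. In 16F8 against parental 29 of the 31 had the same sign as the set used. SCD, examined further after its values were seen, had 4 sets. The 2 with mean signals of 3120 and 2300 gave 0.02 and 0.14 in 16F8 against parental (adjusted p = 0.932 and 0.58). The 2 with mean signals of 160 and 149 gave 1.24 and 1.18 (1.99e-05 and 2.93e-05), and in 3A4 against 16F8 they gave -1.9 and -2.09 (8.23e-08 and 2.24e-08), against -0.57 for the set used (0.00746). These fits were run on single probe sets, of which 17.8% differed between 16F8 and parental, and with them 20 members had at least 1 set past the threshold. Which part of the SCD transcript each set reads was not analysed here.

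**Figure D4:**
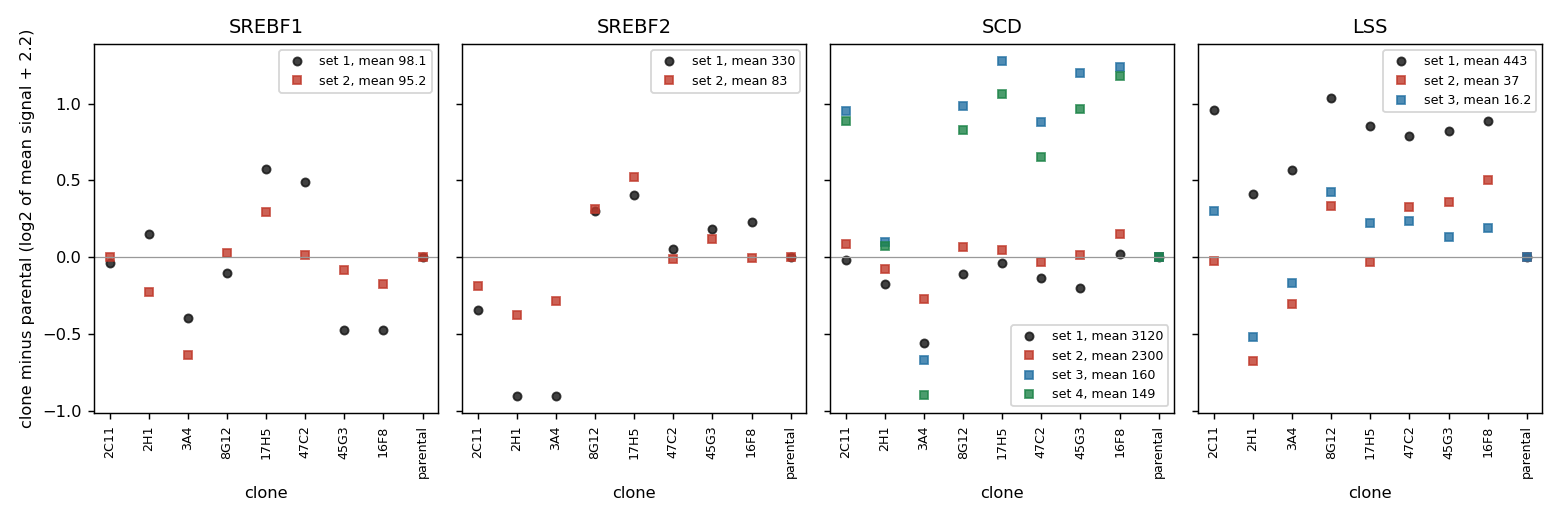
Clone minus parental, in log2(mean signal + 2.2), for each probe set past the filter (points, labelled by mean signal) of SREBF1, SREBF2, SCD and LSS. The SCD sets with mean signals of 160 and 149 lie well above parental in 6 clones, near it in 2H1 and below it in 3A4, while those of 3120 and 2300 are near parental in all clones but 3A4.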

How the data were processed

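The data were 18 one-colour Affymetrix expression arrays of 9 HCT116 clones, 2 biological replicates each, from total RNA amplified and biotin-labelled with a NuGEN kit per the labels' protocols. The authors deposited 1 table of linear intensity values (MAS5 signals, per the submitters' processing notes); the MAS5 version is not given in these labels. Of 54675 probe sets, 41097 named 1 gene, 1801 several, 11715 none, and 62 were controls; genes are named only from probe sets with 1 symbol. Arrays give no counts, and their number limits the precision.

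Signals were taken as log2(signal + 2.2), the offset being the 25th percentile of all values. Probe sets entered the tests if some clone had both of its arrays at or above the array median, and each gene was read from its probe set of highest mean signal. Models were fitted over all 12537 genes in R 4.3.3 with limma 3.58.1 (lmFit, eBayes with a trend), two-sided, with Benjamini-Hochberg adjustment and a threshold of 0.05. Clones were compared on 18 arrays (9 residual degrees of freedom), which tests clones and not genotypes, and their p-values measure the spread between replicate cultures of 1 clone. Genotypes were compared on 9 clone means (7 residual degrees of freedom for mutant against wild type, 6 for the 3 classes). Errors of differences are standard errors. The fit was tested on simulated data.

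The members, lists and tests were chosen with earlier results of these data known. Full per-array values are given for SREBF1, SREBF2, INSIG1 and the members past the F test with the 8 widest ranges; SQLE was added after its values were seen. Same-numbered arrays of different clones did not deviate together in most clone pairs (r of -0.35 to 0.38 in 36 pairs, median 0). As only 4 pairs were over 0.1, the numbers were not taken to pair samples. In parental, 2C11 and 16F8, replicate 1 had the high poly-A controls, and in 8G12 replicate 2 had them. SCD was lower in the array of high controls in all 4 clones. It had 2945 against 3875 in parental, 2901 against 3813 in 2C11, 3197 against 3695 in 16F8 and 2955 against 3361 in 8G12. SREBF1, SCAP, MVD, MSMO1, ACLY, ACACA, ELOVL6 and MID1IP1 were also lower there in all 4. INSIG2, PMVK, IDI1, TM7SF2, NSDHL, HSD17B7, SC5D, STARD4 and ACACB were higher there in all 4, and the other members were mixed. ACAT2 had 426, 985 and 946 in replicate 1 and 307, 1092 and 887 in replicate 2 of parental, 2C11 and 16F8. How many of all genes moved alike was not counted, and a shift shared by these clones was not tested. No 2 arrays held identical values. Promoter sequences are RefSeq's (GRCh38.p14). Figures used Python 3.11.15 and matplotlib 3.10.9. Alternatives were another offset (16), quantile normalization, no filter, other probe sets, no trend, a replicate block, the clone as a random block, the 14 arrays of low poly-A controls (under 1.3 times the median array), and leaving out each array or clone. Fits of each probe set by itself were added after seeing the data.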

Additional observations from a re-analysis of the deposited data

Results flagged for a closer look

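2 members had a clone far from the others among the 7 mutant clones, out of 62 groups examined. Chance gives about 1 in 20 of such groups, so these 2 are no more than chance would give. ACACB was lower in 3A4 than in every other mutant clone, with a mean of 187 and the others at 263 to 311, a gap of 0.669 of the whole range of the 7 clone means on the log2 scale. SCD was lowest in 3A4 too, with a mean of 2310 and the other mutant clones at 2960 to 3360, a gap of 0.654 of the range.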

How the results depend on the processing

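Of the 179 calls of single members between clones, all but 7 kept their direction and stayed past the threshold with quantile normalization, 178 did so with an offset of 16, 174 with a replicate block, 159 without the filter, 155 without the trend, 165 with the mean over probe sets, 124 of 151 with the probe set of highest variance and 142 on the arrays of low poly-A controls. LSS against parental reversed with the probe set of highest variance, to -0.05 in 2C11, -0.68 in 2H1, -0.3 in 3A4 and -0.04 in 17H5, and in 2H1 to -0.27 with the mean over probe sets. Counts of members against parental stayed within 1.5 times under all of these settings, as did those in 2H1 and 3A4 against 16F8. The small counts moved. In 2C11 against 16F8, 2 became 1 with quantile normalization, without the filter, without the trend and with the replicate block, and 0 with the probe set of highest variance and with low poly-A controls. In 17H5 against 16F8, 5 became 2 without the filter, without the trend and with low poly-A controls, and 3 with the probe set of highest variance. In 47C2 against 16F8, 8 became 5 without the filter or the trend, and 4 with low poly-A controls. In 45G3 against 16F8, 0 became 1 with the mean over probe sets. In 2H1 against 2C11, 4 became 8 with the mean over probe sets. In 47C2 against 45G3, 5 became 3 without the filter and 2 without the trend. In 17H5 against 8G12, 1 became 2 with the mean over probe sets, and 0 without the filter, without the trend, with the probe set of highest variance, with the replicate block and with low poly-A controls. With the clone as a random block, 1 member passed in IDH1-mutant against wild-type and 1 in IDH2-mutant against IDH1-mutant clones. How many of all genes passed with that block was not counted. The causes of these changes were not tested.

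Leaving out each array in turn gave 25 to 29 members that differed among the clones. Against parental it gave 8 to 12 in 2C11, 6 to 8 in 2H1, 8 to 12 in 3A4, 13 to 15 in 8G12, 9 to 11 in 17H5, 8 to 10 in 47C2, 13 to 17 in 45G3 and 14 to 17 in 16F8. Against 16F8 it gave 0 to 2 in 2C11, 9 to 16 in 2H1, 13 to 18 in 3A4, 1 to 3 in 17H5 and 2 to 4 in 47C2. It gave 1 to 3 in 2H1 against 2C11, 1 to 4 in 47C2 against 45G3 and 0 in 17H5 against 8G12. Leaving out each clone gave 0 to 1 in IDH1-mutant against wild-type clones and 0 to 1 in IDH2-mutant against IDH1-mutant clones, the 1 without 2C11 in both. The genes passing among all tested were not counted in these fits.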

Other observations

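Other lipid genes, from lists of non-members, are given for the 3 widest called ranges of each list. Of 15 tested genes of fatty acid and glycerolipid metabolism, 10 differed among the clones, where 52.4% of all tested genes did. LPIN1, a phosphatidate phosphatase and SREBP target, rose in all 8 clones against parental, by 0.54 in 2C11 (adjusted p = 0.00457) to 1.43 in 17H5 (3.47e-06), where its mean was 360 ± 7.57 (SD, n = 2 arrays). ACSL1, which activates long-chain fatty acids, fell by 1.26 in 3A4 against 16F8 (adjusted p = 3.58e-06), where its mean was 70.5. SLC25A1, the mitochondrial citrate carrier, rose by 0.95 in 8G12 (7.26e-05) and 0.86 in 16F8 (1.35e-04) against parental, and fell by 0.61 in 3A4 against 16F8 (0.00182).

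Of 13 tested genes of sterol handling and the sterol-sensing receptor LXR, 10 differed, against the same 52.4%. ABCA1, a cholesterol exporter that LXR induces, was dim: its means were 43.6 in 2H1, 38.3 in 2C11 and 14.7 in parental, and it rose by 1.44 in 2H1 (adjusted p = 3.87e-04) and 1.27 in 2C11 (0.00154) against parental. ABCG1, another exporter, fell by 1.37 in 47C2 (2.01e-04) and 1.09 in 16F8 (0.00178) against parental, and rose by 1.14 in 3A4 against 16F8 (9.59e-04). NPC1, which releases cholesterol from lysosomes, fell by 0.62 in 2H1 and 0.56 in 3A4 against parental (adjusted p = 9.07e-04 and 0.00177). Of 9 tested genes that handle SREBP itself, 2 differed, against 52.4% of all genes: SEC24D, a coat protein of vesicles leaving the endoplasmic reticulum, fell by 1.31 in 16F8 against parental (1.43e-05), and MBTPS2, the site-2 protease, fell by 0.38 in 2H1 against both references (0.0135 against 16F8 and 0.0067 against parental).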
